A study of Homo sapiens with 4 samples.

Results

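The protein components of the cytosolic ribosome were followed through 4 RNAseq libraries of MKN28 cells, a human gastric adenocarcinoma cell line. Members were taken by gene name, namely RPL or RPS followed by a number, with a suffix A, X, Y1 or L where present, together with RPLP0, RPLP1, RPLP2 and RPSA. The S6 kinase genes (RPS6K) and RPS27L were left out. The rule matched 83 entries of the deposited table, and RPL26 was listed more than once, so that its most abundant entry was kept. This gave 82 genes of the 23362 entries in the table, of which 49 belonged to the large subunit and 33 to the small subunit. The naming rule itself used no measured value except to pick between the RPL26 entries. It was, however, chosen with earlier results of these data known.

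The study placed tet-on retroviral constructs in MKN28 cells and selected stable lines with antibiotics, and the sources used here do not say whether these were pools or single clones. The control cells carried luciferase (Luc), and the other cells carried KIAA1324, a transmembrane glycoprotein, as the WT form, as 3NQ, in which the asparagines of 3 N-glycosylation sites are replaced by glutamine, or as ΔTM, in which the transmembrane domain is deleted. All 4 lines therefore share the tet-on system, while the retroviral vector and the antibiotics are described for the KIAA1324 lines. Poly(A) RNA of each was sequenced as 1 library per group, so that no difference below has a replicate check and no p-value is given. Neither the sources used here nor the labels say if the cells had received doxycycline before harvest, or for what time.

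Every value is an FPKM, a fragment count scaled to the length of the transcript and the size of the library, as the authors estimated it. No read counts accompany the FPKM, so the depth of each library is unknown and no interval can be given for a single value. KIAA1324 itself was listed at 2.86 for Luc, 11185 for WT and 8197 for 3NQ, but at 0 in the fourth library, which is why the latter is called the library labelled ΔTM. All 5 epithelial markers (EPCAM, CDH1, KRT8, KRT18, KRT19) were detected, and EPCAM lay between 345 and 391. Of 4 markers of other cells, the blood cell markers PTPRC and CD3E and the fibroblast collagen COL3A1 stayed below 0.12, whereas the collagen COL1A1 lay between 12.1 and 15.3. The keratins KRT8 and KRT18 differed between libraries, and KRT8 was 8501 in Luc and 4510 in WT. Their part in the results below was not tested.

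Ribosomal proteins fold around the ribosomal RNAs and are needed in equal numbers, 1 copy of nearly every protein per ribosome, except for the acidic stalk proteins. Their mRNAs are among the most abundant of growing cells. Most of them start at a cytosine followed by a run of pyrimidines, the terminal oligopyrimidine (TOP) tract, through which the mTOR pathway and the RNA-binding protein LARP1 control their translation and stability. The pre-ribosomes are put together in the nucleolus by a separate set of assembly factors, whose genes respond to MYC and do not in general carry such tracts.

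The start sites of 11 members named below are shown here. Of these, 10 have the TOP tract that most members share, and RPS29 has none at its annotated start. They were picked after the values and the tracts were known and do not stand for all members. RefSeq start sites on GRCh38.p14 were at hand for 64 of the 82 members. Each line gives 15 bases before the annotated start and 15 from it, read on the strand of the gene, and capitals mark the tract from its first base.
RPS19: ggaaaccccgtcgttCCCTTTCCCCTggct
RPS21: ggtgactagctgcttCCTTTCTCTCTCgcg
RPL39: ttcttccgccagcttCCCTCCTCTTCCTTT
RPL13A: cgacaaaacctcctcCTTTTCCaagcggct
RPL27A: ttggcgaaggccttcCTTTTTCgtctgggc
RPL38: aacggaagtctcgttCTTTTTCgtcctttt
RPS25: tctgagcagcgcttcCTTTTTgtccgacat
RPLP0: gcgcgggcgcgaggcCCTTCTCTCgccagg
RPL41: cggaacttcgcctttCTCTCggccttagcg
RPSA: tttcctgccgcctgtCTTTTCCgtgctacc
RPS29: ccccgagcgcgcagctggcagcggtggttg
These windows lie at chr19:41860240-41860269 (plus strand) for RPS19, chr20:62387088-62387117 (plus) for RPS21, chrX:119791616-119791645 (minus) for RPL39 and chr19:49487593-49487622 (plus) for RPL13A. Those of RPL27A at chr11:8682777-8682806 (plus), RPL38 at chr17:74203663-74203692 (plus) and RPS25 at chr11:119018329-119018358 (minus) belong to genes that were low in 1 or more libraries. The remaining windows lie at chr12:120201097-120201126 (minus) for RPLP0, chr12:56116618-56116647 (plus) for RPL41, chr3:39406705-39406734 (plus) for RPSA and chr14:49598696-49598725 (minus) for RPS29. Each holds promoter bases followed by the first transcribed bases.

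A tract, counted as C at the annotated start followed by at least 4 further pyrimidines, was found at a start of 47 of the 64 members, or 73.4%. Over all 27305 genes of the start site table the share was 5.14%, and over 727 abundant genes that are no members it was 12%. The tracts of the members were 5 to 19 bases long with a median of 8, and that of RPL39 was the longest and ran on beyond the printed window. RPS19 has another annotated start without a tract, and RPS29 and RPL17 have none at the annotated starts. When the tract was allowed to begin anywhere in the window, 59 members (92.2%) held one, but so did 44.1% of all genes. In the library labelled ΔTM, tracts thus belonged to genes above Luc, such as RPS19, and to genes below it, such as RPL27A.

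Of the 82 members, 77 reached an FPKM of 1 in at least 1 library and were compared, 47 of the large and 30 of the small subunit. The other 5 included RPL10L, listed at 0 in every library, RPL39L, at 0.0818 to 0.273, and RPS4Y1. RPL10L, RPL39L and RPL3L are paralogues of restricted expression. RPL3L, a heart and skeletal muscle paralogue of RPL3, passed through Luc alone. It was 1.17 for Luc, 0.801 for WT and 0.477 for 3NQ, against 0.520 in the library labelled ΔTM, against 619 to 747 for RPL3. The same holds for the other restricted copy, since RPL39 itself was listed at 1515 to 2490.

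Most members were abundant, as 74 had a mean FPKM of at least 100 and 20 of at least 1000. They made up 43 of the 100 most abundant genes in the table and 9 of the first 25. The highest mean belonged to RPL4, which stood at 2490 for Luc, 2387 for WT and 2582 for 3NQ, against 2647 in the library labelled ΔTM. It was followed by RPS3, RPL41, RPS18 and RPS29. The median member was 711 for Luc, 647 for WT and 696 for 3NQ, against 700 in the library labelled ΔTM. Between these libraries, the highest value of a gene was a median of 1.21 times its lowest over the 77 members and 1.19 times over 955 abundant non-members above 0 in all libraries. Apart from RPL3L, the lowest member compared was RPL17, at 7.87 to 15.4. It overlaps the readthrough gene RPL17-C18orf32 on the same strand, which was listed at 0.515 to 2.09.

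**Figure D1:**
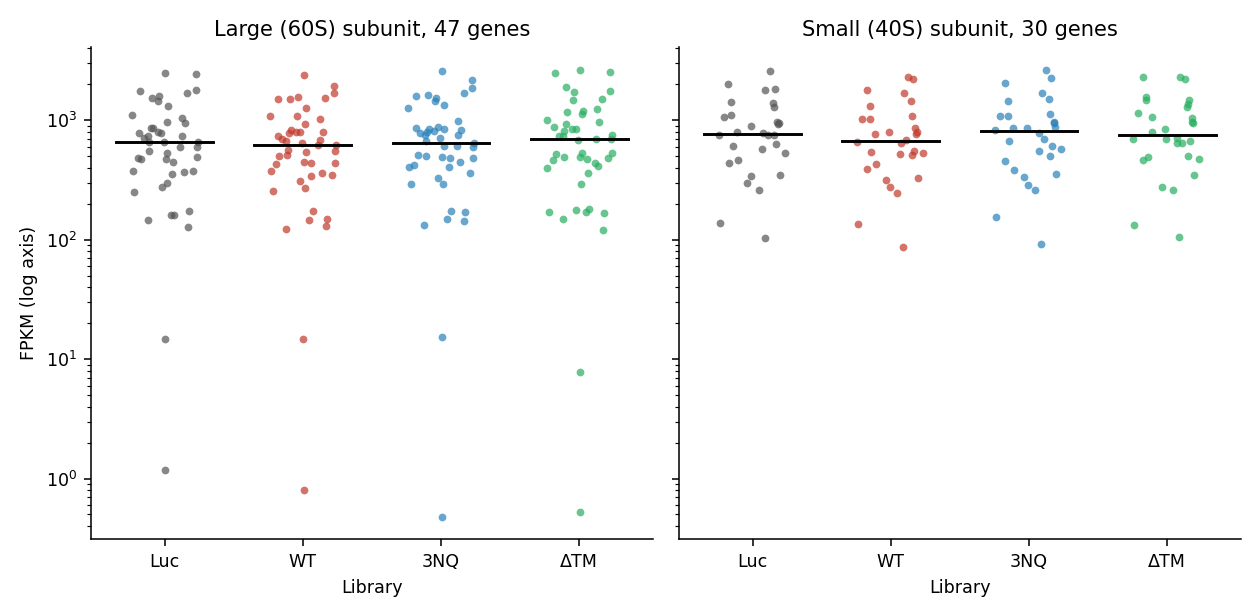
FPKM (log axis) of the 47 large subunit and 30 small subunit genes that reached an FPKM of 1, with a point per gene in each of the 4 libraries and a black line at the median. The clouds of the 4 libraries cover the same range, and the 2 low genes of the large subunit are RPL17 and RPL3L.

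Summed over all members, the FPKM came to 62886 for Luc, 58345 for WT and 63238 for 3NQ, against 66274 in the library labelled ΔTM. As a share of the summed FPKM of all genes this was 10.9%, 10.3%, 10.8% and 11.8%, respectively. WT held the lowest share and the library labelled ΔTM the highest. A few very abundant genes, KIAA1324 and IMMP1L among them, enter the denominator. IMMP1L was listed at 9820 for Luc, 5656 for WT and 22515 for 3NQ, against 18.2 in the library labelled ΔTM. Without the 10 most abundant non-members, the shares were 11.9% for Luc, 11.3% for WT and 12.1% for 3NQ, against 12.5% in the library labelled ΔTM, so that WT stayed lowest while 3NQ moved above Luc. The large subunit genes summed to 1.35 times the small subunit genes in Luc, 1.36 times for WT and 1.35 times for 3NQ, against 1.37 times in the library labelled ΔTM. Fewer cells with a high level and less RNA in each cell cannot be told apart in such bulk RNA.

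Ratios between libraries were computed on log2(FPKM + 1) for the 11769 genes that reached an FPKM of 1 in 1 library or more, and a gene was called at a ratio of 1.5-fold. In WT, ribosomal protein genes lay slightly but widely below Luc. The median log2 ratio of the 77 members was −0.11, against −0.0049 for all genes and −0.050 for 960 abundant non-members, those with a mean FPKM of at least 100. A lower value in WT was found for 64 of the 77 members, or 83.1%, whereas 50.9% of all genes tested were lower by any amount. Of the 960 abundant non-members, 569 were lower in WT. The difference was small for each gene. None of the members was 1.5-fold higher, where the background was 3.36%, and none was 1.5-fold lower, where it was 3.34%. The ratios were also closely bunched, with an interquartile range of 0.14 among members and 0.28 among abundant non-members.

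The shift in WT was seen in both subunits. Of the large subunit genes, 37 of 47 were below Luc with a median of −0.073, and of the small subunit genes 27 of 30 were below with a median of −0.15. Across all 4 libraries, WT held the lowest value for 47 of the 77 members and the highest for 1. By contrast, the library labelled ΔTM held the highest value for 38 and the lowest for 20, 3NQ the highest for 28 and the lowest for 6, and Luc the highest for 10 and the lowest for 4. This order was not counted for all genes or for abundant non-members, so it has no background. Compared to 3NQ, in which KIAA1324 was also highly expressed, 68 of 77 members were lower in WT with a median of −0.11. The background for this pair was 45.1% of all genes lower by any amount. Abundant non-members leaned the same way as the members, with 556 of 960 lower in WT and a median of −0.031. None of the members reached 1.5-fold between WT and 3NQ in either direction, against 4.47% of all genes.

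The stalk proteins RPLP0, RPLP1 and RPLP2, which recruit the elongation factors to the large subunit, all had lower values in WT than in Luc. RPLP0 was 1436 for Luc, 1092 for WT and 1438 for 3NQ, against 1470 in the library labelled ΔTM. WT thus stood apart from 3 libraries that lay close together. RPLP1 was 663, 562, 676 and 812 and RPLP2 was 296, 269, 292 and 290 in the same order, and the log2 ratios of WT to Luc were −0.39, −0.24 and −0.14 for RPLP0, RPLP1 and RPLP2. RPLP2 differed least between the libraries.

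RPSA, a small subunit protein that also serves as a laminin receptor, was 788 for Luc, 648 for WT and 780 for 3NQ, against 709 in the library labelled ΔTM. RPS2, which lines the mRNA entry channel, was 932 for Luc, 769 for WT and 940 for 3NQ, against 969 in the library labelled ΔTM. After rounding, RPS2 and RPSA both had −0.28 as the log2 ratio of WT to Luc. RPL41, the shortest of the ribosomal proteins, was 2443, 1948, 2185 and 2511 in the same order, with a log2 ratio of −0.33 in WT. Each of these was lowest in WT.

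RPS6, the small subunit protein phosphorylated by S6 kinases downstream of mTOR, was 441 for Luc, 394 for WT and 454 for 3NQ, against 461 in the library labelled ΔTM. RPL5, RPL11 and RPL23, which bind the p53 ubiquitin ligase MDM2 when they are not in ribosomes, had log2 ratios of −0.045, −0.13 and −0.11 in WT. In 3NQ they lay at −0.060, −0.11 and −0.0011, and in the library labelled ΔTM at 0.11, 0.11 and 0.21. All 3 were thus below Luc in WT and 3NQ, by small amounts, and above it in the library labelled ΔTM.

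A few members lay above Luc in WT. RPS29, a zinc-binding small subunit protein, was 1822 for Luc, 2202 for WT and 2278 for 3NQ, against 1473 in the library labelled ΔTM, with a log2 ratio of 0.27 in WT. It was the member with the highest ratio in both WT and 3NQ. RPL27A had a log2 ratio of 0.17, RPS13 of 0.10, RPL28 of 0.092 and RPL7 of 0.076 in WT. The remaining 8 of the 13 members above Luc had smaller ratios.

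In 3NQ, the members lay around Luc. Their median log2 ratio was 0.012, against −0.038 for all genes and −0.024 for abundant non-members, and 33 of 77 members were below Luc, where 57.0% of all genes were. None was called higher (background 1.77%) or lower (background 2.57%). The highest log2 ratios after RPS29, at 0.32, were those of RPL37A at 0.25, RPL27A at 0.24, RPL37 at 0.23 and RPL32 at 0.19. The lowest were those of RPS25 at −0.58, RPL3L at −0.56, RPS19 at −0.27, RPS21 at −0.25 and RPS3A at −0.19. The value of RPL3L rests on FPKM of about 1 or less and moves with the pseudocount.

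RPS25 (ENSG00000118181, chromosome 11 of GRCh37 from 118886422 to 118889401, minus strand), a small subunit protein needed for translation from several internal ribosome entry sites, was the lowest member in both WT and 3NQ. It was 757 for Luc, 515 for WT and 505 for 3NQ, against 504 in the library labelled ΔTM. The 3 libraries with a KIAA1324 label lay within a narrow range and Luc stood above them. The log2 ratios were −0.55 for WT and −0.58 for 3NQ, against −0.59 in the library labelled ΔTM, on either side of the 1.5-fold threshold of 0.585. These 3 ratios share Luc, so 1 value decides them all.

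In the library labelled ΔTM, the median was again near Luc in the values as deposited, but single members were widely scattered. The median log2 ratio was 0.040, against −0.060 for all genes and −0.038 for abundant non-members, and 33 of 77 members were below Luc, against 63.0% of all genes. Set against all genes, the members thus lay higher here and lower in WT. After rescaling by the median of ratios, their median was 0.11 with 54 members above Luc, against 0.0011 for all genes. With a trend on GC content and transcript length removed, it was −0.010 with 41 members below Luc. The interquartile range was 0.25 among members and 0.19 among abundant non-members, the reverse of the order in WT. A log2 ratio past 0.25 in either direction was found for 20 members here, for 9 in WT and for 6 in 3NQ. The share of all genes past 0.25 was not counted, so these counts have no background. The 5th to 95th percentiles in the library labelled ΔTM were −0.52 to 0.45 for members and −0.39 to 0.33 for all genes. For WT they were −0.29 to 0.079 and −0.51 to 0.50, and for 3NQ −0.20 to 0.20 and −0.47 to 0.38. Of the members, 2 were called higher (2.60%, background 1.54%) and 3 lower (3.90%, background 1.57%). With so few genes called, these shares were not far from the background.

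**Figure D2:**
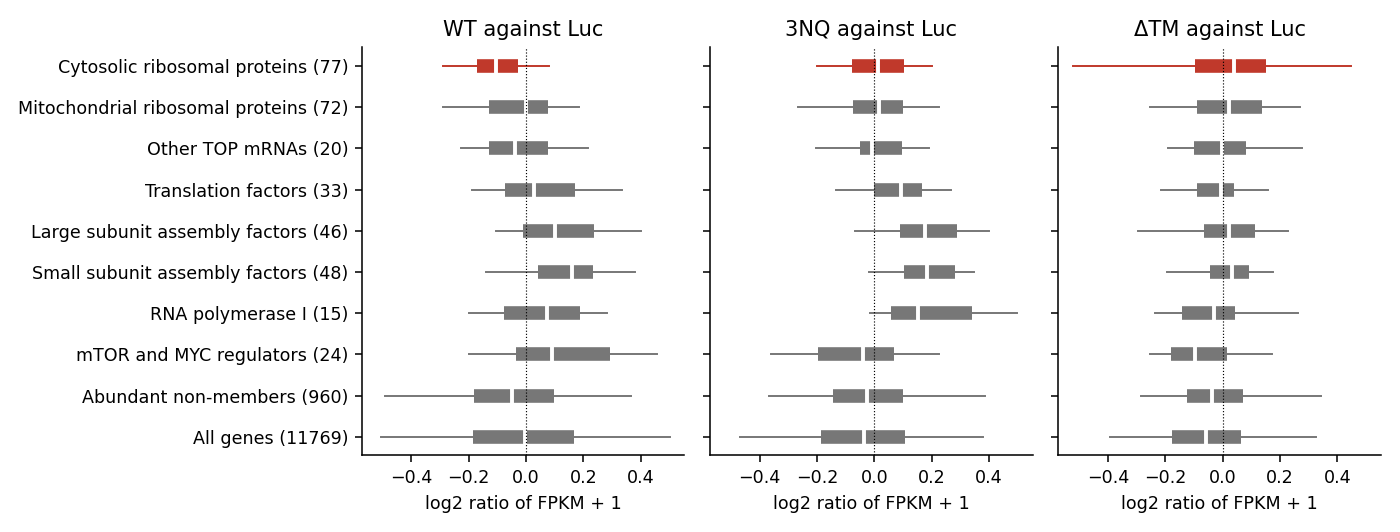
Log2 ratio of FPKM + 1 to Luc for the members (red) and for other gene groups (grey), with the number of genes compared in brackets. Thick bars span the 25th to 75th percentiles, thin lines the 5th to 95th and white marks the median, and the members' bar lies left of 0 in WT, while the medians of the assembly factors lie right of it in WT and 3NQ.

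Among the members called in the library labelled ΔTM, RPS19 and RPS21 were the highest. RPS19 (ENSG00000105372, chromosome 19 of GRCh37 from 42363988 to 42376994, plus strand) is a small subunit protein needed for the maturation of the small subunit RNA and is the gene most often mutated in Diamond-Blackfan anaemia. It was 464 for Luc, 430 for WT and 385 for 3NQ, against 1055 in the library labelled ΔTM, a log2 ratio of 1.18 to Luc. RPS21 (ENSG00000171858, chromosome 20 of GRCh37 from 60962172 to 60963576, plus strand) was 340, 274, 285 and 700 in the same order, a log2 ratio of 1.04. In both genes the library labelled ΔTM stood apart above the other 3 libraries, which ranged from 385 to 464 for RPS19 and from 274 to 340 for RPS21.

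RPL39, which lines the exit tunnel of the large subunit, followed at 1750 for Luc, 1515 for WT and 1610 for 3NQ, against 2490 in the library labelled ΔTM. With a log2 ratio of 0.51 it did not reach the threshold. RPS15A was 1107, 1023, 1086 and 1558 and RPL13A 863, 825, 841 and 1169 in the same order, with log2 ratios of 0.49 and 0.44. RPL13A is known to leave the ribosome and repress the translation of inflammatory mRNAs. In these 3 genes as well, only the library labelled ΔTM stood apart.

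On the low side, RPL27A (ENSG00000166441, chromosome 11 of GRCh37 from 8703958 to 8736306, plus strand) was 276 for Luc, 310 for WT and 326 for 3NQ, against 177 in the library labelled ΔTM, a log2 ratio of −0.64. RPL17 was 14.6, 14.7, 15.4 and 7.87 in the same order, a log2 ratio of −0.82. Its readthrough partner RPL17-C18orf32 was 0.809 in Luc and 2.09 in the library labelled ΔTM, the opposite order, and reads of the shared exons cannot be assigned with certainty. RPS25 was the other member called lower.

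RPL37 was 249 for Luc, 255 for WT and 293 for 3NQ, against 170 in the library labelled ΔTM, a log2 ratio of −0.55 that stayed within the threshold. RPL38, linked to the translation of Hox mRNAs in the mouse, was 597, 617, 613 and 438 in the same order, a log2 ratio of −0.44. For RPL27A, RPL37, RPL38 and RPS29, the library labelled ΔTM was the lowest and WT and 3NQ were both above Luc.

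**Figure D3:**
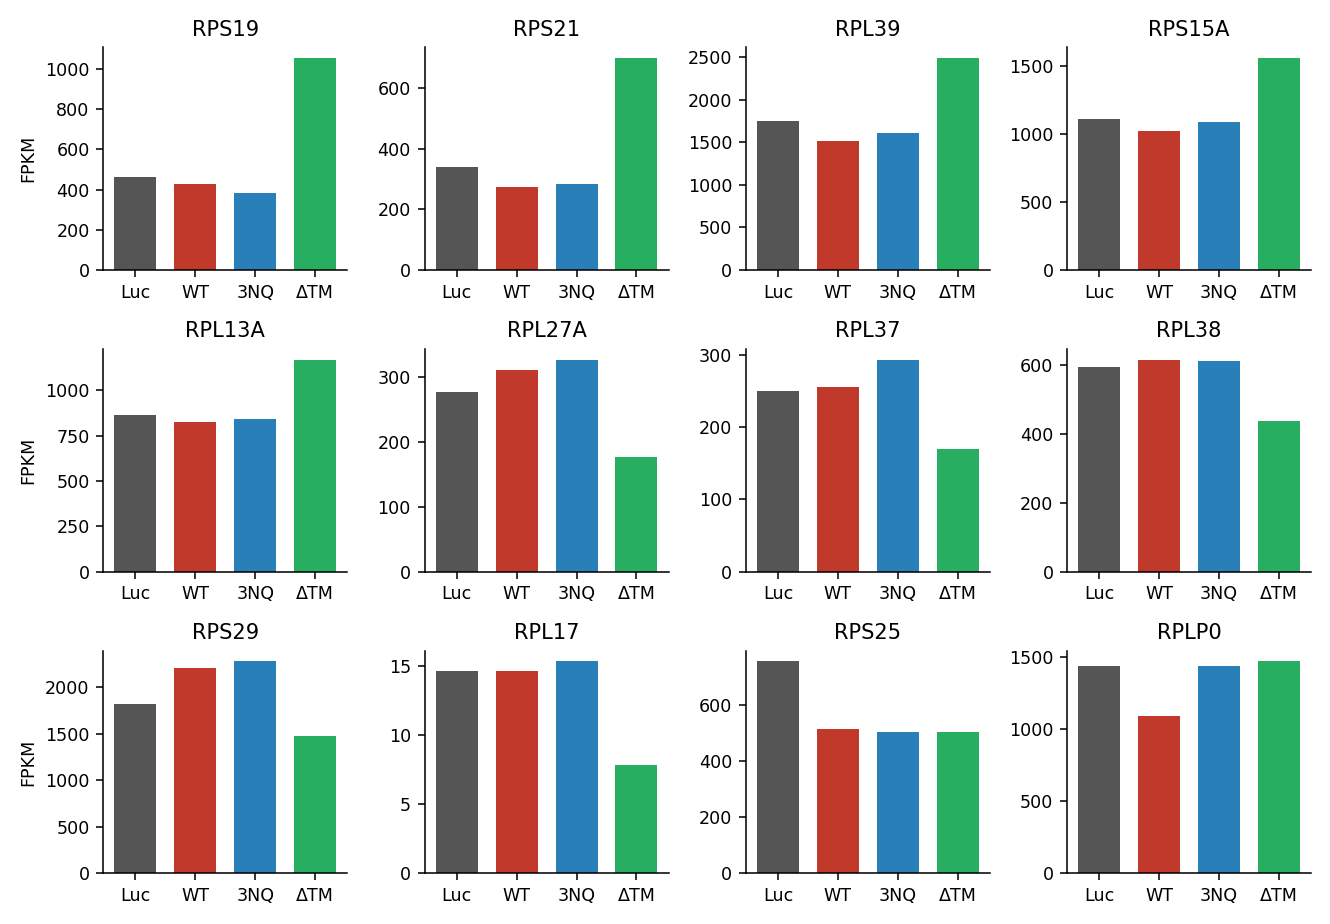
FPKM in the 4 libraries for 12 members named in the text, 1 panel each with an axis from 0. Each bar is 1 library without a replicate, and the library labelled ΔTM is the highest for RPS19, RPS21, RPL39, RPS15A and RPL13A and the lowest for RPL27A, RPL37, RPL38, RPS29 and RPL17.

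The library labelled ΔTM was also compared with the other constructs. Between WT and the library labelled ΔTM, 56 of 77 members were lower in WT (background 43.0%), with a median log2 ratio of −0.13. Of 960 abundant non-members, 520 were lower in WT, with a median of −0.029. Of the members, 2 were called higher in WT and 4 lower, where 7.16% of all genes were called in either direction. Between 3NQ and the library labelled ΔTM, 41 of 77 were lower in 3NQ (background 45.7%), with a median of −0.032, and 4 were called higher and 3 lower, where 3.34% of all genes were called in either direction. RPS19 was lower by a log2 ratio of −1.29 in WT and −1.45 in 3NQ than in the library labelled ΔTM.

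The scatter in the library labelled ΔTM was wider among members with short coding sequences. For the 16 compared members with a coding length under 350 nucleotides, the SD of the log2 ratio to Luc was 0.39, and for the 61 longer members it was 0.28. In WT the same SDs were 0.16 and 0.12 and in 3NQ 0.18 and 0.15. Among 80 abundant non-members with a coding length under 350 nucleotides, the SD in the library labelled ΔTM was 0.23, and among 869 longer ones it was 0.61, with interquartile ranges of 0.17 and 0.19. In that library, the short genes were thus not the more scattered ones among non-members. The SD of 0.61 there includes single ratios from −9.0 to 7.7. By interquartile range, the short non-members were the more scattered in WT, at 0.33 against 0.27, and in 3NQ, at 0.27 against 0.24. Among members, the interquartile ranges of short and longer genes were 0.22 and 0.13 in WT and 0.31 and 0.16 in 3NQ. They were 0.37 and 0.22 in the library labelled ΔTM. RPS21, RPL39, RPL37, RPL38 and RPS29 are short by coding length, whereas RPS19, RPL27A and RPL13A are not.

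**Figure D4:**
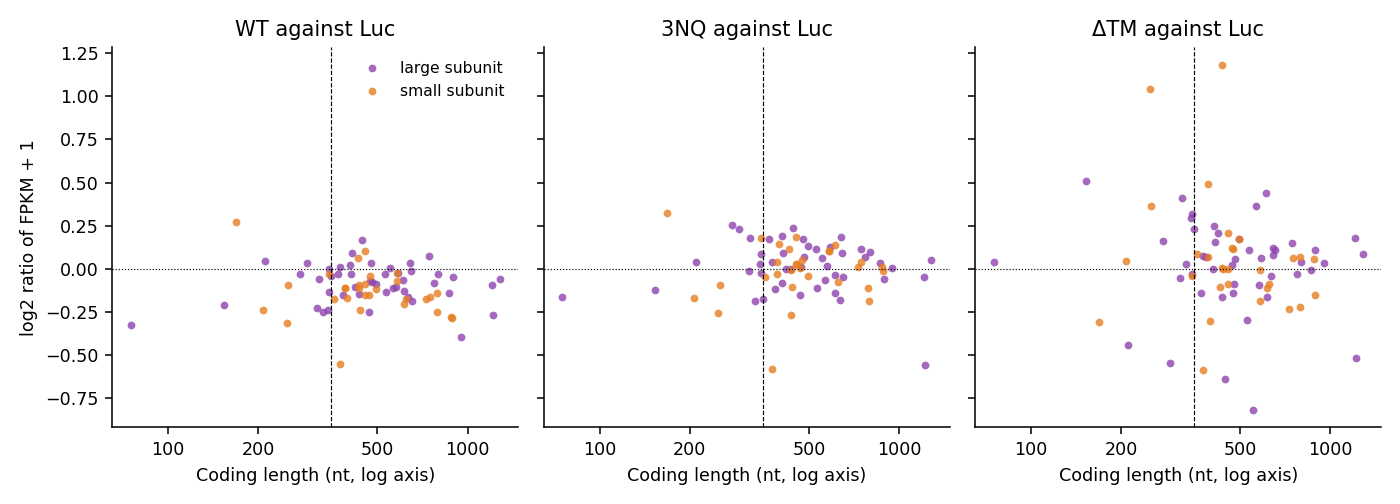
Log2 ratio of FPKM + 1 to Luc against the coding length in nucleotides (log axis) for the 47 large subunit (purple) and 30 small subunit (orange) members compared. The dashed line marks 350 nucleotides, and the points spread most in the library labelled ΔTM, where RPS19 at 1.18 and RPS21 at 1.04 stand above all others.

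Of the ribosomal genes that the naming rule leaves out, 7 of 8 were compared. FAU, which encodes a ubiquitin-like protein fused to a small subunit protein, had a log2 ratio of −0.067 in WT. RPL26L1, a close paralogue of RPL26, was 29.5 for Luc, 27.5 for WT and 27.7 for 3NQ, against 66.4 in the library labelled ΔTM, a log2 ratio of 1.14. As for RPS19 and RPS21, the library labelled ΔTM was far above the other 3 libraries, and RPL26 itself was 1681, 1522, 1681 and 1503 in that order. RPL22L1, which can take the place of RPL22, was 47.0, 50.3, 57.4 and 54.5 and RPL22 was 162, 146, 149 and 169. In WT and 3NQ, RPL22L1 was thus above Luc and RPL22 below it. RPS27L, RPL36AL and RPL7L1 were not called in any comparison with Luc, and RPS4Y2 was not compared.

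Genes that share the TOP tract or a place in translation were set beside the members. Of 20 TOP mRNAs that encode no RPL or RPS protein, 12 were below Luc in WT, with a median log2 ratio of −0.039, and the medians were −0.0099 in 3NQ and −0.0017 for the library labelled ΔTM. Elongation factor EEF1A1 was 4960 in Luc and 5720 in WT, TPT1 1036 and 1210, the poly(A)-binding protein PABPC1 1097 and 938, and NAP1L1 303 and 257. The list therefore had members on either side of Luc by similar amounts. The 33 translation initiation and elongation factors compared had medians of 0.029 for WT and 0.093 for 3NQ, against −0.0059 in the library labelled ΔTM. The 72 mitochondrial ribosomal protein genes compared, whose products form a separate ribosome, had medians of 0.00056, 0.017 and 0.021 in the same order, and 36 of the 72 were below Luc in WT. None of the 20 TOP mRNAs was called against Luc, where in WT 3.36% of all genes were called higher and 3.34% lower. A list of this length would hold few calls at such shares.

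Genes for ribosome assembly lay on the other side of Luc from the members in WT. Of 48 small subunit assembly factors compared, 42 were above Luc in WT with a median log2 ratio of 0.16, and 45 in 3NQ with a median of 0.19. Of 46 large subunit assembly factors, 34 were above Luc in WT with a median of 0.10, and 40 in 3NQ with a median of 0.18. In the library labelled ΔTM, the medians were 0.032 and 0.023, with 30 and 29 genes above. As with the members, single differences were small, and 1 small subunit factor was called higher in WT, RRP12, an export and processing factor, at 19.4 for Luc, 31.8 for WT and 26.2 for 3NQ, against 19.3 in the library labelled ΔTM. UTP6, of the small subunit processome, was 45.9, 69.1, 51.4 and 51.2, and its log2 ratio in WT was 0.58. The large subunit factor EFTUD1 releases EIF6 from the nascent subunit. It was listed at 780 in Luc and at 16.0 to 17.9 in the others, and was the only large subunit factor called against Luc. With 1 gene called in each list in WT, these counts were near the background of 3.36% higher and 3.34% lower.

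The genes of RNA polymerase I and its factors, which transcribe the ribosomal RNA, were above Luc for 10 of 15 in WT and 14 of 15 in 3NQ, with medians of 0.075 and 0.15, and the median was −0.031 in the library labelled ΔTM. Of 10 proteins of the box C/D and H/ACA particles that modify ribosomal RNA, 5 were above Luc in WT and 10 in 3NQ, with medians of 0.014 and 0.17. The 8 nucleolar proteins compared had medians of 0.16 for WT and 0.24 for 3NQ, against 0.0059 in the library labelled ΔTM. Nucleolin (NCL) was 362 for Luc, 422 for WT and 433 for 3NQ, against 402 in the library labelled ΔTM. The 13 chaperones of ribosomal proteins had medians of −0.018, 0.097 and −0.052 in the same order. GRWD1, the chaperone of RPL3, was the highest of them in WT at a log2 ratio of 0.35.

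Regulators of ribosomal protein synthesis showed no direction common to all comparisons with Luc. The 24 genes of the mTOR and MYC list had medians of 0.092 for WT and −0.038 for 3NQ, against −0.097 in the library labelled ΔTM. Of these genes, 16 were above Luc in WT and 10 in 3NQ, against 7 in the library labelled ΔTM. MYC was 72.3 for Luc, 99.6 for WT and 91.8 for 3NQ, against 79.4 in the library labelled ΔTM. LARP1, the TOP-binding protein, was 86.2, 86.8, 90.4 and 77.3 and MTOR 17.4, 19.0, 18.3 and 16.3 in that order. MXD4, which competes with MYC for MAX, was the only gene of the list called in WT, at 3.03 in Luc and 6.09 in WT. The share of all genes called higher in WT was 3.36%. The MDM2 mRNA was 65.5 for Luc, 84.6 for WT and 51.8 for 3NQ, against 55.3 in the library labelled ΔTM.

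Overlapping genes and copies limit what single members show. Another gene of the table overlaps 35 of the 82 members, 12 of them on the same strand and 23 on the opposite strand only, and the sources used here do not say whether reads were assigned by strand. RPL36A overlaps the gene RP1-164F3.9 on the same strand, which was listed at 132 to 189, while RPL36A was 357 in Luc and 474 in the library labelled ΔTM. RPS13 overlaps PIK3C2A on the same strand, which was 28.6 for Luc, 55.4 for WT and 24.3 for 3NQ, against 24.7 in the library labelled ΔTM. RPS13 itself was 296, 318, 337 and 278 in the same order. Any effect of this overlap on RPS13 was not tested. The annotation names 1588 pseudogenes after 77 of the members, with a median of 12.5 per member and up to 133, for RPL21. Of 24 pseudogene entries in the table, 5 had a mean FPKM of at least 1 and the highest mean was 17.7.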

How the data were processed

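Poly(A) RNA from 4 MKN28 lines was prepared with a TruSeq kit and sequenced as 1 library each. The authors mapped reads to GRCh37 with TopHat and estimated FPKM with Cufflinks 2.1.1, per the methods and the submitters' processing notes. The deposited FPKM are scaled for library size and gene length, so a few very abundant genes can shift all others. A value of 0 can be a failed estimate. From these FPKM, log2 ratios (pseudocount 1) were taken for genes reaching an FPKM of 1 in any library, using numpy 2.4.6, pandas 2.3.3 and matplotlib 3.10.9 under Python 3.11.15. The steps were tested on simulated data. The pseudocount understates differences of low genes. Genes reaching 1.5-fold were called, and no test across libraries was made. Coding length, GC content and pseudogenes came from GENCODE 44 on GRCh37 and start sites from RefSeq on GRCh38.p14.

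The members and lists were chosen with earlier results of these data known, and the lists were written from general knowledge. The lists' symbols BUD23, NOP53 and PECAM1 did not match the table. Genes named singly were KIAA1324, the 5 highest and 5 lowest members in each comparison with Luc, those called against Luc, the 5 most and 5 least abundant members, the stalk, RPSA, RPL5, RPL11, RPL23, RPS6, RPL22, RPL39 and their paralogues, and ribosomal genes outside the rule. Other named genes were chosen after their values were seen. Single values of some genes under this rule are not reported here. The alternatives were pseudocounts of 0.1 and 5, no filter, a minimum FPKM of 5, 2 rescalings, summing repeated symbols, leaving out restricted paralogues, removing a trend on GC content and on transcript length, and a 2-fold threshold. Members with a coding length of at least 350 nucleotides were added after seeing the data.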

Additional observations from a re-analysis of the deposited data

How the results depend on the processing

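Over the alternatives, the members' median log2 ratio to Luc stayed between −0.11 and −0.077 in WT and between 0.010 and 0.056 in 3NQ. In the library labelled ΔTM it lay between −0.010 and 0.11, and its sign turned when a trend on GC content and on transcript length was removed, while the median of all genes there was −0.068. Rescaling by the median of ratios moved the median of all genes in that library from −0.060 to 0.0011, and the number of members called against Luc from 5 to 3. With a 2-fold threshold it was 2. In 3NQ, 1 member, RPL3L, was called with a pseudocount of 0.1, at a log2 ratio of −1.14, and in the other alternatives none. The RPS25 ratio in the library labelled ΔTM was −0.58 with a pseudocount of 5, −0.55 under the upper quartile and −0.52 under the median of ratios, and that of RPL27A was −0.57 under the median of ratios, all short of the threshold. Without the 10 most abundant non-members, the members held 11.9% of the summed FPKM for Luc, 11.3% for WT and 12.1% for 3NQ. The cause of these shifts was not tested. In the library labelled ΔTM, the medians of the TOP list, the translation factors, the chaperones and RNA polymerase I were positive under the median of ratios and negative as deposited. Those of the TOP list and of the mTOR and MYC list in 3NQ turned in the same way. The assembly factor medians stayed positive in all 3 comparisons under each scaling tried. No paired analysis was possible because each group has 1 library, and for the same reason no replicate could be left out.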

Other observations

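The pairs of libraries that share no library were set beside each other as a description. Over the 77 members, the log2 ratios of WT to Luc and of 3NQ to the library labelled ΔTM had a Pearson correlation of 0.41, and over 960 abundant non-members 0.24. For 3NQ to Luc and WT to the library labelled ΔTM, the values were 0.41 and 0.26, and for the library labelled ΔTM to Luc and WT to 3NQ they were 0.085 and 0.0056. Correlations of ranks (Spearman) for the first pair were 0.41 over members and 0.39 over abundant non-members, which is nearly equal. They were 0.50 and 0.29 for the second pair and 0.12 and −0.085 for the third. Without RPL3L, which passed the filter through Luc alone, the 3 Pearson values over members were 0.41, 0.51 and 0.19. Genes are not independent replicates, and the points share 4 libraries, their depth and their base composition.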
